A study of Saccharomyces cerevisiae with 16 samples.

Results

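Steady-state RNA and newly synthesized RNA were compared in yeast that had received rapamycin, in the 4 samples titled Taf4 and plus rapamycin out of 16 samples in the series. They were 2 arrays labelled steady-state and 2 labelled newly synthesized, chosen by their titles and not by any measured value. The strain of these samples was a MATalpha derivative of W303 with tor1-1, fpr1::NAT, RPL13A-2xFKB12::TRP1 and TAF4-FRB::HYGRO. In this anchor-away system rapamycin ties the FRB-tagged protein, here Taf4 of the general transcription factor TFIID, to a ribosomal protein that carries the FKBP12 tag and leaves the nucleus. Cells had rapamycin for 30 min at 1 µg/mL by the treatment protocol, while the series' design text gives 5 µM, and 5 mM 4-thiouracil was then given for 6 min. The 4 comparison samples without rapamycin, with the same strain label, had DMSO alone and the same labelling. No strain without the FRB tag was among the samples used here, so an effect of rapamycin itself and one of Taf4 depletion cannot be told apart. Wild-type fission yeast (Schizosaccharomyces pombe) cells, labelled likewise and with no rapamycin named, were added to Saccharomyces cerevisiae cells at a ratio of 1 to 3. The labels do not say that replicates came from separate cultures. Every p-value therefore reflects the variation among these samples only, and that variation may be technical.

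Total RNA holds each mRNA in proportion to its synthesis and to how long it lasts, whereas RNA labelled for a few minutes holds it mainly in proportion to its synthesis. The ratio of the fractions therefore ranks mRNAs by stability in an unperturbed culture. In budding yeast the mRNAs of ribosomal proteins and of glycolytic enzymes are known as long-lived, and those of many transcription factors and cell cycle regulators as short-lived. Rapamycin given to a culture before labelling changes synthesis first and the total pool only as existing mRNA decays.

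The fraction labels of these arrays were in doubt before any gene was compared. Of the 4 arrays, 3 were deposited again under a Taf5 title with the opposite fraction label. Steady-state replicate 1 equalled a newly synthesized Taf5 column, and both newly synthesized arrays equalled steady-state Taf5 columns, to within 0.001 signal units after division by 5. Steady-state replicate 2 was the only one of the 4 that recurred nowhere. Over all 16 columns there were 10 distinct scans. The genotype label names TAF4-FRB for every sample, those titled Taf5 included. The labels are kept below as the titles give them, and every direction is that of the titles. Markers matched the stated mating type: the 5 alpha-cell marker genes had log2 signals of 8.85 to 13.24 and the 7 a-cell markers 3.76 to 6.07 across the 4 arrays, as deposited.

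Values below are log2 signals after each array was shifted so that its median S. cerevisiae gene was equal, and a difference is steady-state label minus newly synthesized label. Of 5449 S. cerevisiae genes on the array, 4359 were tested and the 1090 dimmest were left out. In S. cerevisiae genes the arrays differed more between the labels than within them. The median absolute log2 difference between replicates was 0.17 for the steady-state pair and 0.11 for the newly synthesized pair, against 0.38 between the labels. A difference above 1 was seen for 0.206% of genes between the steady-state replicates, 0.138% between the newly synthesized ones and 7.87% between the label means. Spearman's rho across genes was 0.989 within the steady-state pair, 0.992 within the newly synthesized pair and 0.949 to 0.967 between the labels. Across S. pombe probe sets, steady-state replicate 1 had a rho of 0.978 with replicate 2 and of 0.980 and 0.982 with the newly synthesized arrays. Steady-state replicate 2 had 0.953 and 0.955 with the newly synthesized arrays, which had 0.991 with each other. In S. pombe steady-state replicate 1 thus lay as near to the newly synthesized arrays as to its own replicate, while replicate 2 lay farther from them.

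By limma with Benjamini-Hochberg adjustment over all 4359 genes, 796 genes (18.3%) were higher and 1515 (34.8%) were lower under the steady-state label at an adjusted p under 0.05. The 2 steady-state arrays lay wholly above both newly synthesized arrays for 1338 genes (30.7%) and wholly below them for 2041 (46.8%). The median difference of the tested genes was -0.11 and the SD of the differences across genes 0.55.

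These directions are relative to the median S. cerevisiae gene, and the spike-in gave another zero. The S. cerevisiae median exceeded the S. pombe median by 0.51 and 0.88 on the log2 scale in the steady-state arrays, and fell below it with values of -0.25 and -0.23 in the newly synthesized arrays. Both steady-state arrays were above both newly synthesized arrays. The means were 0.69 ± 0.26 and -0.24 ± 0.02 (SD, n = 2 each), a difference of 0.93 or 1.91-fold, with an exact two-sided permutation p of 0.333, the smallest that 2 against 2 arrays allow. The strain, treatment and cell mix are given as the same for both labels, but the labels do not tie the fractions to a shared culture. The source of this difference was not tested. With S. pombe medians made equal, the median tested gene stood at 0.83, and 3115 genes (71.5%) were higher and 48 (1.1%) lower by limma. Each array's genes move by 1 constant between the scalings, so the order of genes is the same and only the zero differs. Each gene list below is therefore given against the median of all tested genes, which was -0.11 with equal S. cerevisiae medians, 0.83 with equal S. pombe medians and 0.02 after quantile normalization.

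The lowest genes included several metabolic enzymes, a small heat-shock protein and a ribosomal protein. Genes were ranked here only if they had an adjusted p under 0.05, no overlap between the arrays of the labels, a gene-specific probe set and a standard name. The 12 with the lowest differences were IPP1, HSP26, GTT1, REE1, HRI1, TAL1, YPT31, HYR1, BNA6, RPS0B, SOL3 and IRC24. IPP1, the cytosolic inorganic pyrophosphatase (YBR011C, chromosome II, 257112 to 257975 in assembly R64), had signals of 11.39 and 10.61 under the steady-state label and 13.10 and 12.92 under the newly synthesized label. It was 4.02-fold lower, a log2 difference of -2.01 (SE 0.22, limma adjusted p = 0.000223). HSP26, a small heat-shock protein (chromosome II, 382030 to 382674), had 10.69 and 9.69 against 12.29 and 12.09, a difference of -2.00 (SE 0.25, limma adjusted p = 0.000299). In both genes steady-state replicate 2 was the lowest of the 4 arrays, while the lack of overlap between the labels was required by the ranking. TAL1 and SOL3, which encode transaldolase and a 6-phosphogluconolactonase of the pentose phosphate pathway, differed by -1.79 and -1.74. BNA6, which makes a precursor of NAD, differed by -1.78. RPS0B, a small-subunit ribosomal protein, differed by -1.75, and its near-identical paralog RPS0A may share its probes' target. YPT31, a Rab GTPase of the Golgi, differed by -1.79.

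3 of these 12 genes are neighbours on chromosome IX. IRC24 (YIR036C, 422074 to 422865), HYR1 (YIR037W, 423128 to 423619) and GTT1 (YIR038C, 423809 to 424513) lie next to each other, and each is called lower. HYR1 encodes the peroxidase that senses hydrogen peroxide for the transcription factor Yap1, GTT1 a glutathione transferase, and IRC24 a benzil reductase. GTT1 had signals of 9.03 and 8.03 against 10.48 and 10.52, a difference of -1.97 (SE 0.24, limma adjusted p = 0.000299). HYR1 had 9.97 and 8.99 against 11.39 and 11.12, a difference of -1.78 (SE 0.24, limma adjusted p = 0.000432). IRC24 had 8.89 and 8.12 against 10.35 and 10.09, a difference of -1.72 (SE 0.21, limma adjusted p = 0.000294). All 3 were higher in both newly synthesized arrays than in both steady-state arrays. That separation and the call of lower were both required by the ranking rule. Without rapamycin they differed by -2.58, -2.66 and -1.84 in the same order.

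The highest genes included factors of RNA processing, rRNA maturation, transcription and the kinetochore. By the same limits, the 12 highest were LSM8, MDH2, ASG1, MNN4, BTN2, BUD22, TPO2, KRE28, STD1, CTR9, EFG1 and NDC80. LSM8, a subunit of the Lsm ring that binds U6 snRNA in the nucleus (YJR022W, chromosome X, 469784 to 470113), had signals of 9.94 and 9.90 under the steady-state label and 7.81 and 7.87 under the newly synthesized label. It was 4.24-fold higher, a log2 difference of 2.08 (SE 0.14, limma adjusted p = 7.82e-05). MDH2, the cytosolic malate dehydrogenase (chromosome XV, 81787 to 82920), had 10.32 and 10.35 against 8.64 and 8.80, a difference of 1.61 (SE 0.11, limma adjusted p = 8.49e-05). In these genes the replicates lay close together and the labels far apart.

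Among the others, ASG1, a zinc cluster regulator, differed by 1.59 and CTR9, a subunit of the Paf1 elongation complex, by 1.29. BUD22 and EFG1, which act in the maturation of small-subunit rRNA, differed by 1.42 and 1.29. KRE28 and NDC80, kinetochore proteins, differed by 1.34 and 1.28, and STD1, a regulator of glucose sensing, by 1.33. TPO2, a polyamine exporter, differed by 1.36, BTN2, which sequesters misfolded proteins, by 1.42, and MNN4, a regulator of mannosylphosphate transfer to glycans, by 1.49. All 24 genes at the ends of the ranking kept their direction and an adjusted p under 0.05 with equal S. pombe medians, where IPP1 stood at -1.07 and LSM8 at 3.02.

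**Figure D1:**
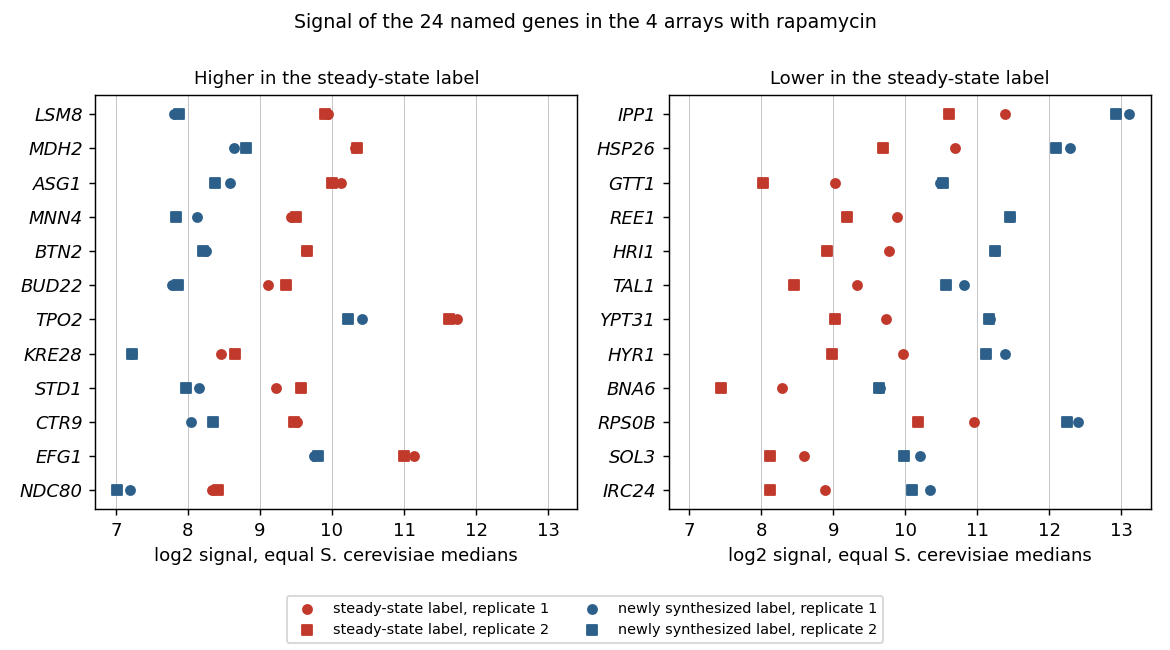
Log2 signal (x axis, equal S. cerevisiae medians) of the 12 highest and 12 lowest genes in the 4 arrays with rapamycin, 1 point per array, red for the steady-state label and blue for the newly synthesized label, circles for replicate 1 and squares for replicate 2. In every one of the 24 genes the red and blue points are apart, which the ranking required. Among the lower genes steady-state replicate 2 lies below replicate 1, as in IPP1 at 10.61 and 11.39.

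Genes of protein synthesis were mostly lower. Shares lower are read against 34.8% of all tested genes and 63.1% of the brightest of 4 groups by signal, described below. Cytosolic ribosomal protein genes had 123 of 127 members lower and 0 higher, with a median of -0.81. With equal S. pombe medians the median was 0.13, and after quantile normalization -0.07, so the list stayed below the median of all tested genes under each scaling but below 0 under only some. RPS31, the ribosomal protein made as a ubiquitin fusion, had 13.94 and 13.46 against 14.35 and 14.40, a difference of -0.68 (SE 0.17, limma adjusted p = 0.00683). Both steady-state arrays were lower, and the arrays did not overlap. Many ribosomal proteins are encoded by near-identical paralogs whose probe sets may read both copies.

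Translation factors had 28 of 37 members lower and 0 higher, with a median of -0.64 (0.30 with equal S. pombe medians and -0.18 after quantile normalization). TEF2, one of the copies of elongation factor 1 alpha, whose probe set is shared with its twin TEF1, differed by -0.74. Aminoacyl-tRNA synthetases had 16 of 18 lower and 0 higher, with a median of -0.74 (0.20 and -0.20). GUS1, the glutamyl-tRNA synthetase, had 11.82 and 11.64 against 12.68 and 12.55, a difference of -0.89 (SE 0.12, limma adjusted p = 0.000373), with no overlap.

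Central carbon metabolism followed the same direction. All 18 glycolysis and fermentation genes were lower, with a median of -0.72 (0.22 with equal S. pombe medians and -0.02 after quantile normalization). TPI1, triose phosphate isomerase, had 13.85 and 13.28 against 14.31 and 14.41, a difference of -0.79 (SE 0.17, limma adjusted p = 0.00305). TDH3, the main glyceraldehyde-3-phosphate dehydrogenase, which has close paralogs, had 13.78 and 13.35 against 14.12 and 14.30, a difference of -0.65 (SE 0.15, limma adjusted p = 0.00465). In both genes the steady-state arrays were lower without overlap. Citric acid cycle genes had 12 of 15 lower and 1 higher, with a median of -0.70 (0.24 and -0.41). ACO1, aconitase, differed by -0.70, and the member that was higher was MDH2, whose product works in the cytosol. Nuclear genes for respiration had 22 of 39 lower and 2 higher, CYC7 and QCR9, with a median of -0.41 (0.53 and 0.05). Their share lower was below the 63.1% of the brightest of 4 signal groups. ATP1, a subunit of the mitochondrial ATP synthase, differed by -0.92.

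Among 13 hexose transporters 5 were tested, of which HXT2 and HXT7 were lower and none was higher. That share lower is near the 34.8% of all tested genes. HXT7 differed by -0.62, and its probe set is shared with a near-identical copy.

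The general stress response had the lowest median of the lists, and chaperones and the proteasome lay higher. The stress list had 30 of 32 tested members lower and 0 higher, with a median of -0.88 (0.06 with equal S. pombe medians and -0.43 after quantile normalization). HSP12, a small membrane-associated stress protein, had 13.06 and 12.45 against 13.64 and 13.65, a difference of -0.90 (SE 0.18, limma adjusted p = 0.00219). PNC1, the nicotinamidase of NAD salvage, had 11.87 and 11.34 against 12.49 and 12.59, a difference of -0.94 (SE 0.17, limma adjusted p = 0.00146). Neither gene overlapped between the labels, and steady-state replicate 2 was the lowest array in each. Cytosolic chaperones had 12 of 20 lower and 1 higher, FES1, with a median of -0.57 (0.36 and -0.13). The share of chaperones lower was near the 63.1% of the brightest of 4 signal groups. SSB1, a ribosome-associated Hsp70 with a near-identical paralog, differed by -0.95. Proteasome subunits had 26 of 33 lower and 0 higher, with a median of -0.49 (0.44 and -0.15), and PRE9, a subunit of the core particle, differed by -1.01.

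Among biosynthetic and surface genes the lists were also mostly lower, except the histones. Amino acid synthesis had 35 of 57 tested members lower and 2 higher, CPA1 and MET10, with a median of -0.42 (0.52 and -0.24). HOM6, homoserine dehydrogenase, differed by -1.14. Ergosterol synthesis had 20 of 24 lower and 0 higher, with a median of -0.54 (0.39 and -0.31), and ERG2, the C-8 sterol isomerase, differed by -1.02. Cell wall proteins had 21 of 34 lower and 3 higher, SCW11, UTR2 and DSE3, with a median of -0.52 (0.41 and 0.01). For amino acid synthesis and cell wall proteins the share lower was near the 63.1% of the brightest of 4 signal groups. CCW12, an abundant mannoprotein of the wall, differed by -0.71. Histones had 4 of 10 lower, HTA2, HTB2, HHT2 and HHO1, and 0 higher, with a median of -0.31 (0.62 and 0.39), a share lower near the 34.8% of all tested genes. HTA2 differed by -0.44 (SE 0.14) and HTA1 by -0.23 (SE 0.14, limma adjusted p = 0.189), and both probe sets read histone H2A genes that are nearly identical.

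Regulators lay on the other side, where 18.3% of all tested genes were higher and 34.8% lower. Sequence-specific transcription factors had 31 of 75 tested members higher and 2 lower, HAC1 and DAL82, with a median of 0.22 (1.16 with equal S. pombe medians and 0.32 after quantile normalization). Of the 95 on the array, 20 were left out as dim. MET4, the activator of sulphur amino acid genes and the highest member, differed by 1.21. GCN4, the activator of amino acid synthesis and the brightest member, had 12.40 and 12.18 against 12.46 and 12.49, a difference of -0.19 (SE 0.12, limma adjusted p = 0.217). HAC1, the transcription factor of the unfolded protein response, whose mRNA is spliced outside the nucleus, had 6.84 and 6.60 against 8.30 and 8.48, a difference of -1.67 (SE 0.13, limma adjusted p = 0.00011). HAC1 was thus the gene of this list farthest from the others, with the labels well apart.

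Cyclins and regulators of cyclin-dependent kinases had the highest list median, 0.37 (1.30 and 0.49), with 9 of 16 members higher and 2 lower, CDC20 and CDC28. CLN1, a G1 cyclin, had 10.06 and 10.48 against 9.59 and 9.55, a difference of 0.71 (SE 0.14, limma adjusted p = 0.00232). CDC5, the polo kinase, had 9.33 and 9.44 against 9.02 and 8.79, a difference of 0.48 (SE 0.12, limma adjusted p = 0.00717). Both genes were higher in each steady-state array. CLB6, an S-phase cyclin and the highest member, differed by 1.00.

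Genes of the transcription machinery had calls in both directions. TFIID and TBP had 2 of 15 members higher, TAF1 and TAF11, and 3 lower, SPT15, TAF13 and TAF14, with a median of 0.10 (1.03 and 0.13). Both shares were below those of all tested genes, 18.3% higher and 34.8% lower. SPT15, which encodes the TATA-binding protein TBP, had 9.81 and 9.58 against 10.54 and 10.57, a difference of -0.86 (SE 0.14, limma adjusted p = 0.000849). TAF1, a TFIID subunit that contacts TBP, differed by 0.93, and TAF10, a histone-fold subunit shared with SAGA, by -0.26 (SE 0.11, limma adjusted p = 0.071). TAF4, the tagged subunit, had 7.04 and 6.95 against 6.40 and 6.80, a difference of 0.39 (SE 0.17, limma adjusted p = 0.0705). TAF5 had 9.14 and 9.22 against 9.12 and 8.95, a difference of 0.15 (SE 0.13, limma adjusted p = 0.365). Neither gene passed the test. Anchor-away removes the protein from the nucleus and leaves the gene in place, so the TAF4 signal is no check of the depletion.

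Of all tested genes 18.3% were higher and 34.8% lower. The coactivator SAGA had 6 of 15 members higher and 2 lower, SPT3 and SPT8, with a median of 0.18 (1.11 and 0.16). NGG1, a subunit of its acetylation module, had 9.66 and 9.83 against 8.86 and 8.82, a difference of 0.91 (SE 0.12, limma adjusted p = 0.000348). SPT20, a core subunit, differed by 0.42 (limma adjusted p = 0.028). Mediator had 7 of 20 higher and 1 lower, with a median of 0.21 (1.14 and 0.27). The lower member was SRB2, a head subunit, with 9.30 and 8.52 against 10.46 and 10.57, a difference of -1.60 (SE 0.22, limma adjusted p = 0.000425), and the highest was SOH1 with 0.93. The SRB2 arrays did not overlap. RNA polymerase II subunits had 6 of 12 lower and 0 higher, with a median of -0.31 (0.62 and 0.18), and RPB10, a small subunit common to the 3 nuclear polymerases, differed by -0.43. The share of these subunits lower was below the 63.1% of the brightest of 4 signal groups.

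Other RNA-related lists are read against the 18.3% of all tested genes that were higher and the 34.8% that were lower. Ribosome assembly factors had 24 of 104 higher and 14 lower, with a median of 0.06 (1.00 and 0.26), so their share higher was near that of all genes and their share lower was below it. NHP2, a protein of the pseudouridylation particles, differed by -0.46. Mitochondrial ribosomal proteins had 13 of 69 higher and 11 lower, with a median of -0.03 (0.91 and 0.10), and their share higher was that of the background. Their brightest member, MRPL39, differed by 0.32 (limma adjusted p = 0.0425). MRP8, in the list by its name only, was the lowest at -1.04. Spliceosome genes had 16 of 52 higher and 6 lower, with a median of 0.21 (1.15 and 0.22), and SNU13, a protein of both the tri-snRNP and the box C/D particles, differed by -0.56. Genes of mRNA decay had 8 of 35 higher and 6 lower, with a median of 0.12 (1.06 and 0.27), again with a share higher near the background. The alpha-cell and pheromone list had FUS1, STE5, STE7 and STE18 higher and MF(ALPHA)1, SAG1 and STE11 lower among 17 tested, with a median of 0.00 (0.93 and 0.18). MF(ALPHA)1, the alpha-factor precursor, differed by -0.46.

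Ribosomal protein and glycolytic mRNAs are known as long-lived. With equal S. cerevisiae medians those lists were lower, relative to the median gene, under the label of total RNA. The lists of transcription factors and cyclins were higher. Ribosomal proteins and glycolysis were also bright, with median log2 signals of 12.68 and 12.79 against 8.66 for all tested genes. As deposited their median differences were -0.15 and -0.06, against 0.54 for all tested genes. After quantile normalization ribosomal proteins at -0.07 and glycolysis at -0.02 lay close to the 0.02 of all tested genes. Transcription factors and cyclins then stood at 0.32 and 0.49. Histones at 0.39, RNA polymerase II subunits at 0.18 and nuclear genes for respiration at 0.05 were then also above that median. No cause was tested, and the columns are called by their labels throughout. Of the 7 genes tested in the list of strain genes, RPL13A, which carries the anchor, differed by -1.03. HIS3, ADE2 and CAN1, which the genotype given above does not name, were also lower, by -0.69, -0.62 and -0.47. With equal S. pombe medians these 3 stood at 0.25, 0.31 and 0.46, and RPL13A at -0.10. TOR1 differed by -0.12 (limma adjusted p = 0.47) and, like TAF4 and TAF5, was not called. LEU2 and URA3 were left out as dim.

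**Figure D2:**
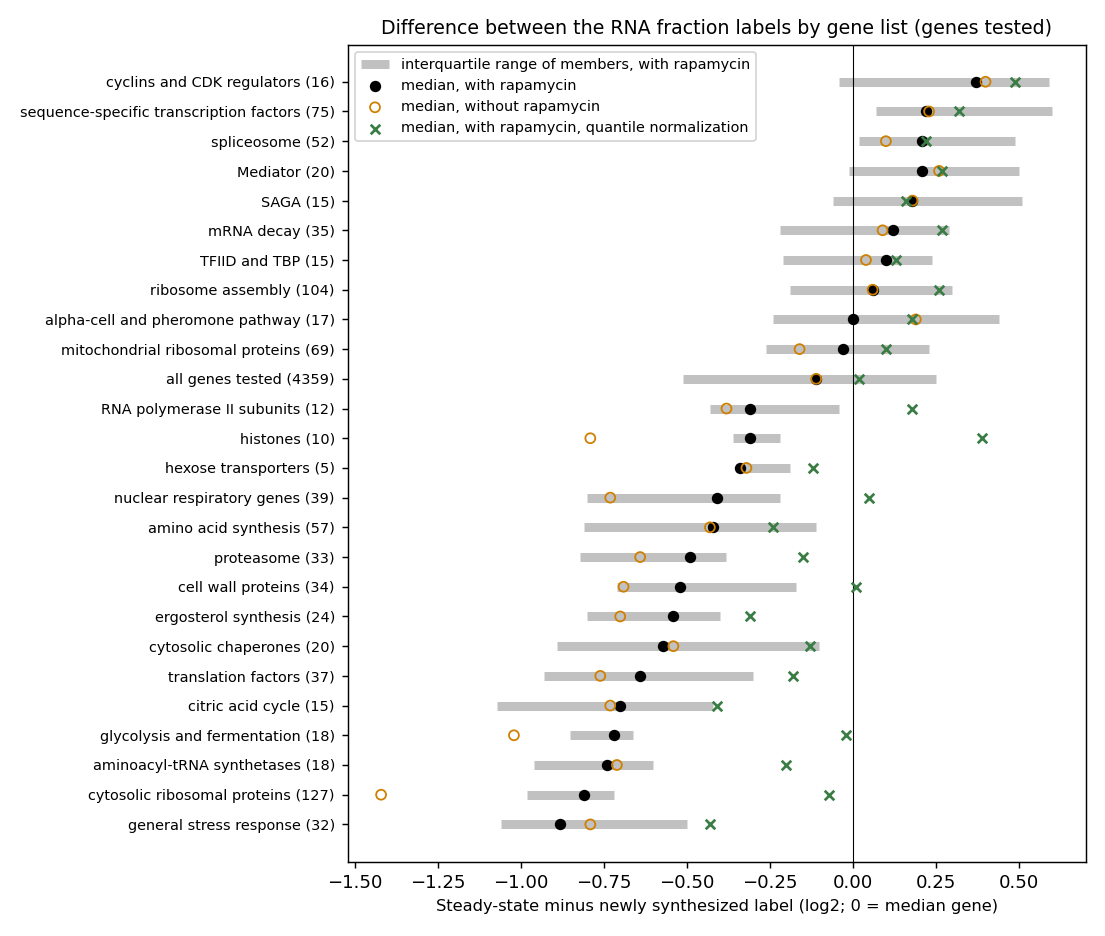
Difference between the labels for each gene list (x axis, log2, steady-state minus newly synthesized, equal S. cerevisiae medians), with the number of genes tested in brackets. Black points are medians with rapamycin, grey bars the interquartile range, open circles medians without rapamycin and crosses medians with rapamycin after quantile normalization. The general stress response at -0.88 and ribosomal proteins at -0.81 lie lowest and cyclins at 0.37 highest, and the crosses of many lower lists lie near 0.

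The difference varied with gene span and with signal. The tested genes were divided by span into 4 groups of about equal size. The shortest genes (78 to 768 bases) had a median of -0.34, with 11.5% higher and 49.1% lower. The longest genes (1929 to 14733 bases) had a median of 0.10, with 26.6% higher and 18.4% lower. In 4 such groups by mean log2 signal over the 8 columns titled Taf4, the brightest genes had a median of -0.52, with 7.52% higher and 63.1% lower, and the dimmest a median of 0.06. Across the 4359 genes, Spearman's rho of the difference was 0.288 with span and -0.36 with signal, and rho between span and signal was -0.28. These describe genes on shared arrays, with no test.

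Both properties varied with the difference within groups of the other. Among the brightest genes the median was -0.57 in the shortest group (481 genes), -0.69 in the next (261 genes), -0.36 in the one after it (205 genes) and -0.24 in the longest (143 genes), so it did not rise steadily with span. Among the dimmest genes it was -0.02 in the shortest group (148 genes) and 0.13 in the longest (339 genes). The lists with low medians are bright and many are short: the median ribosomal protein gene spanned 771 bases with a log2 signal of 12.68, against 1242 bases and 8.66 for all tested genes. The part of span and signal in the list medians was not tested.

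**Figure D3:**
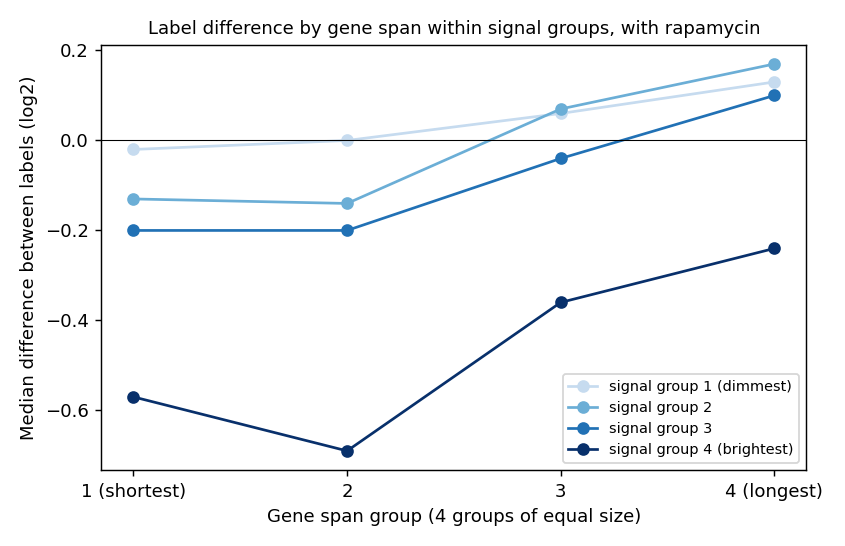
Median difference between the labels (y axis, log2, with rapamycin) by gene span group (x axis, 4 groups of about equal size), with 1 line per group of mean signal. The line of the brightest genes lies lowest, with -0.57 in the shortest group, a lowest value of -0.69 in the group after it and -0.24 in the longest, and in each signal group the longest genes lie above the shortest.

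Signal along transcripts also differed between the labels. The array carries control probe sets at the 5′ and the 3′ end of 12 genes, 7 of S. cerevisiae and 5 of S. pombe, and a lower value of 5′ minus 3′ means less signal from the 5′ end. In 9 of the 12 genes both steady-state arrays were lower than both newly synthesized arrays, 6 of S. cerevisiae and 3 of S. pombe, none was higher in both, and 3 overlapped. For ACT1, actin, 5′ minus 3′ was -3.47 and -4.0 under the steady-state label and -2.53 and -2.89 under the newly synthesized label. For TDH1, a glyceraldehyde-3-phosphate dehydrogenase, it was -2.42 and -3.29 against -1.46 and -1.55. The mean differences were -1.03 and -1.35, and without rapamycin -1.70 and -2.81. Steady-state replicate 2 had the lowest value of the 4 arrays in both genes. The part of this 5′ loss in the gene differences was not tested. The probe sets for S. cerevisiae rRNA differed, as deposited, by -0.29 to 0.76, the lowest and the highest being the 5′ and the 3′ set of 18S rRNA.

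**Figure D4:**
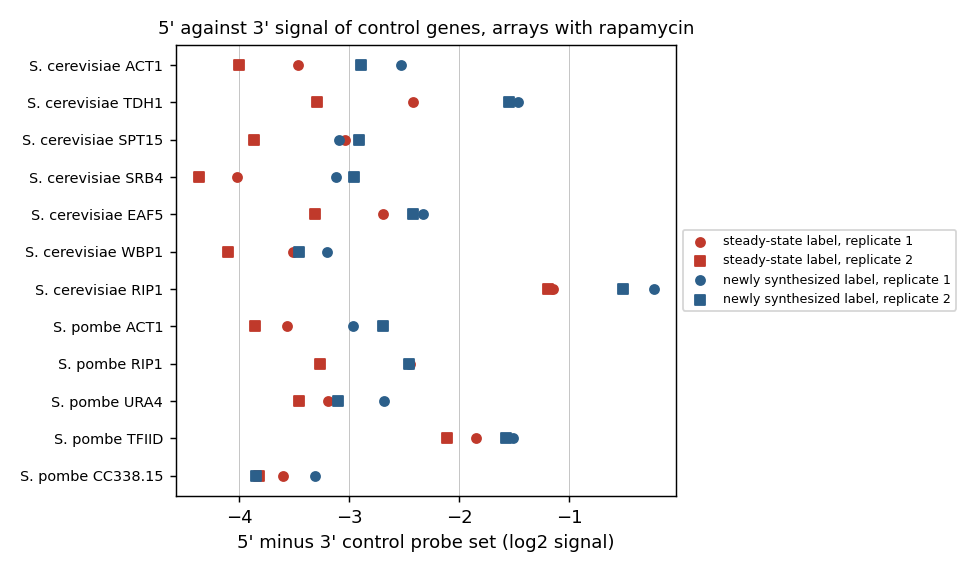
Log2 signal of the 5′ control probe set minus that of the 3′ set (x axis) for 7 S. cerevisiae and 5 S. pombe genes in the 4 arrays with rapamycin, 1 point per array, red for the steady-state label and blue for the newly synthesized label. In 9 of the 12 genes both red points lie left of both blue points, as in ACT1 of S. cerevisiae at -3.47 and -4.0 against -2.53 and -2.89.

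The S. pombe RNA, from wild-type cells mixed into every sample, had a narrower spread of differences. With S. pombe medians made equal, 53 of 1397 probe sets (3.79%) were higher and 93 (6.66%) lower under the steady-state label by limma, and the SD of the differences was 0.36, against 0.55 for S. cerevisiae genes. Of 13 probe sets for S. pombe ribosomal proteins 0 were called, with a median of 0.10. The S. pombe gene gcv3, of the glycine cleavage system, had 8.43 and 7.40 against 9.20 and 9.05, a difference of -1.20 (SE 0.25, limma adjusted p = 0.0175). The S. pombe gene taf13, a TFIID subunit, had 8.98 and 8.96 against 7.88 and 8.08, a difference of 0.99 (SE 0.16, limma adjusted p = 0.0155). Neither overlapped between the labels. Both counts came to 0 when steady-state replicate 2 or either newly synthesized array was left out, and to 129 and 288 without steady-state replicate 1. Without rapamycin 363 S. pombe probe sets (26.0%) were higher and 584 (41.8%) lower, with an SD of 0.92.

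The same contrast was measured in the cultures without rapamycin, whose arrays are separate from the 4 described. Their labels are in the same doubt: both steady-state arrays and newly synthesized replicate 1 recur under Taf5 titles with the opposite fraction label, so the values show how alike the arrays rank genes and say nothing of whether the labels are right. There 984 genes (22.6%) were higher and 1644 (37.7%) lower by limma, and the SD of the differences was 0.71, against 0.55 with rapamycin. Of the genes higher with rapamycin 508 were also higher without, 63.8% of the first list and 51.6% of the second. Of the genes lower with rapamycin 1263 were also lower without, 83.4% and 76.8% of the lists. Opposite calls were made for 7 genes higher with and lower without rapamycin and for 14 the other way round. Across the 4359 genes the differences with and without rapamycin had a Spearman's rho of 0.818. Ribosomal protein genes had a median of -1.42 without rapamycin and -0.81 with it, glycolysis -1.02 and -0.72, and histones -0.79 and -0.31. Transcription factors had 0.23 and 0.22, and the general stress response -0.79 and -0.88.

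**Figure D5:**
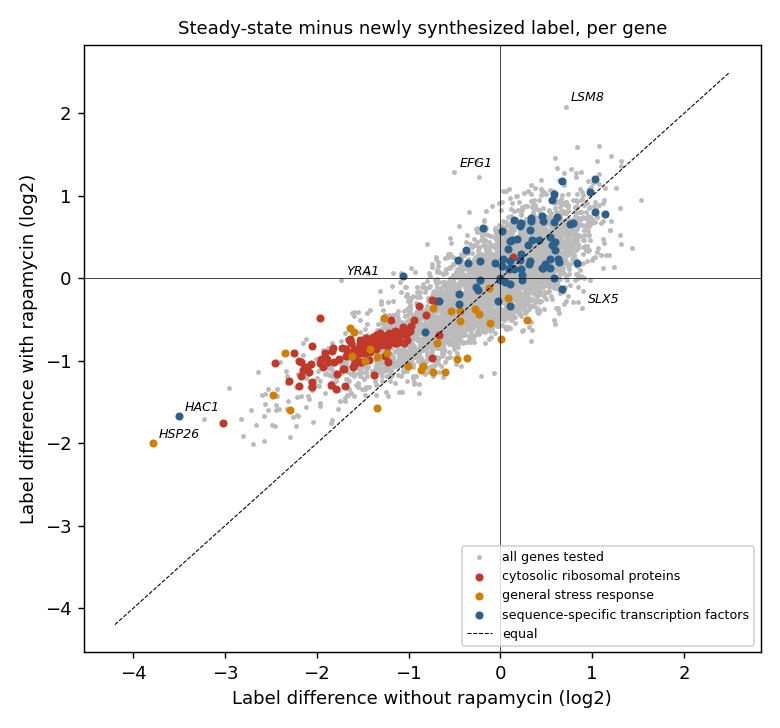
Difference between the labels for each tested gene without rapamycin (x axis) and with rapamycin (y axis), both log2 with equal S. cerevisiae medians, with 3 gene lists in colour and a dashed line of equal values. The ribosomal protein genes, at a median of -1.42 and -0.81, lie mostly above the line, and HAC1, HSP26, EFG1, YRA1, LSM8 and SLX5 lie far from it.

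Tested directly, the contrast differed between the treatments for 61 genes (1.4%) that were higher and 19 (0.436%) that were lower with rapamycin than without, by the interaction term of the same limma fit. This balance turned round with another zero: the counts were 6 higher and 52 lower with equal S. pombe medians, 22 and 88 as deposited, and 6 and 2003 after loess normalization on the S. pombe probe sets. The same term also varied in the S. pombe RNA, from cells with no rapamycin named. With S. pombe medians made equal, 626 of 1397 probe sets had an unadjusted limma p under 0.05. In S. cerevisiae 1137 of 4359 genes did. The SD of the terms was 0.70 in S. pombe and 0.40 in S. cerevisiae. How far the S. cerevisiae terms reflect treatment of the cells was not tested. The largest positive terms were those of HAC1, EFG1, HSP26 and YRA1, the last an mRNA export factor that limits its own expression through an intron. HAC1 stood at -3.50 without and -1.67 with rapamycin, a term of 1.82 (SE 0.19, limma adjusted p = 0.00659). Its steady-state signals without rapamycin were 5.04 and 4.83, below 6.70, the lowest mean signal of the tested genes. EFG1, with 11.14 and 11.00 against 9.75 and 9.80 in the arrays with rapamycin, stood at -0.50 without and 1.29 with it, a term of 1.79 (SE 0.20, limma adjusted p = 0.00681). HSP26 stood at -3.78 and -2.00 and YRA1 at -1.74 and -0.02, with terms of 1.78 (SE 0.35, limma adjusted p = 0.0437) and 1.73 (SE 0.24, limma adjusted p = 0.0194). HSP26 had steady-state signals of 5.95 and 6.05 without rapamycin, also below 6.70. The terms of HAC1 and HSP26 thus rest partly on dim signals. EFG1 was the only one of the 4 whose difference was positive with rapamycin, though with equal S. pombe medians YRA1 was positive too, at 0.92.

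The largest negative terms were those of SLX5, a subunit of a ubiquitin ligase that recognizes SUMO, and of APL5, SEC39 and VPS8, which act in vesicle traffic as parts of the AP-3 adaptor, the Dsl1 tethering complex and the CORVET complex. SLX5 stood at 0.89 without and -0.36 with rapamycin, a term of -1.26 (SE 0.25, limma adjusted p = 0.0452). APL5 stood at 0.60 and -0.55, SEC39 at 0.58 and -0.51, and VPS8 at 0.79 and -0.29, with terms of -1.15, -1.09 and -1.08 and limma adjusted p of 0.0372, 0.0383 and 0.0319. With equal S. cerevisiae medians the 4 genes were positive without and negative with rapamycin, whereas with equal S. pombe medians they stood at 0.57, 0.38, 0.43 and 0.65 with it, in the order SLX5, APL5, SEC39 and VPS8. With rapamycin alone SLX5 and VPS8 did not pass the test (limma adjusted p = 0.109 and 0.0721). Of ribosomal protein genes 5 of 127 had a positive interaction call and 0 a negative one, against 1.4% and 0.436% of all tested genes. This holds with equal S. cerevisiae medians only, since the balance of all interaction calls turned round with another zero. The counts of 61 and 19 ranged from 0 to 485 and from 0 to 125 when 1 of the 8 arrays was left out. They were 0 and 0 without steady-state replicate 2 of the cultures without rapamycin, and 485 and 125 without steady-state replicate 2 of those with it.

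The columns titled Taf5 with rapamycin gave the opposite order, as their 3 shared scans carry the opposite labels. Their difference had a median of 0.91 for ribosomal protein genes, 1.64 for the general stress response, 0.77 for glycolysis and -0.22 for transcription factors. The 1 array there that is no copy, newly synthesized replicate 2, had Spearman's rho across genes of 0.815 and 0.825 with the steady-state Taf4 arrays and 0.782 and 0.792 with the newly synthesized ones. Because scans are shared, these values are a description and no second measurement.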

How the data were processed

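The deposited series matrix holds intensity values on a linear scale from Affymetrix Yeast Genome 2.0 arrays, 1 sample per array. Affymetrix Expression Console 1.4.1 is named in the submitters' processing notes, and the summary method is not given in the sources used here. The deposited intensity columns titled Taf4 have a mean near 500 after trimming 2% at each end, taken over all probe sets of the array.

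Of 10928 probe sets, 7244 had 1 gene symbol in the platform annotation, 1 several and 3683 none. Of these, 5498 probe sets matched 5449 S. cerevisiae genes and 1746 S. pombe names. Positions are those of RefSeq assembly R64. Each gene was represented by its brightest probe set on average, and genes in the lowest 20% of mean log2 signal over the 8 columns titled Taf4 were left out.

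Log2 values, computed here from the deposited intensities with no pseudocount, were shifted to equal S. cerevisiae medians and fitted over the 8 columns (4 groups of 2) with limma 3.58.1 in R 4.3.3 (lmFit, eBayes, two-sided, Benjamini-Hochberg over all genes tested, threshold 0.05). Array medians were compared by exact permutation. The number of arrays limits the precision. The fits were also run on simulated arrays with independent noise and few changed genes. That setting is simpler than these arrays, and no result above rests on it.

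Members and gene lists were chosen with earlier results of these data known. Named genes are the 12 largest called differences each way with arrays that do not overlap and a specific probe set, the 3 brightest members of each list, the 4 largest called interaction terms each way, and the strain genes. Genes named as a list's few called members, or as its highest, and the S. pombe genes were chosen after their values were seen. Of 29 lists, 26 had tested members. The lists of snoRNAs, other stable non-coding RNAs and mitochondrially encoded genes matched none. Alternatives were other scalings, filters, an offset of 16 before log2, averaged probe sets, an intensity trend, the 4 columns alone, a replicate block, and fits without each array in turn. The median ratio without the lowest 20% was added after seeing the data.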

Additional observations from a re-analysis of the deposited data

Results flagged for a closer look

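The contrast between the fraction labels differed between cultures with and without rapamycin, by the interaction term of the limma fit, for 61 genes that were higher and 19 that were lower with rapamycin. The balance turned round to 6 and 52 with equal S. pombe medians, 22 and 88 as deposited, and 6 and 2003 after loess. The S. pombe probe sets, from cells with no rapamycin named, had an SD of this term of 0.70, against 0.40 for S. cerevisiae genes. HAC1 had a term of 1.82, EFG1 of 1.79, HSP26 of 1.78 and YRA1 of 1.73. HAC1 and HSP26 were dim in the steady-state arrays without rapamycin. SLX5 had a term of -1.26, APL5 of -1.15, SEC39 of -1.09 and VPS8 of -1.08. Each of these 8 genes kept the sign of its term and lost its adjusted p under 0.05 in at least 1 alternative. HAC1 lost it in a single one, without steady-state replicate 2 of the cultures without rapamycin. No group held 4 or more samples, so single samples far from their group were not looked for.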

How the results depend on the processing

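All 24 genes at the ends of the ranking kept their direction and their side of the threshold in every alternative. The counts of higher and lower genes, 796 and 1515, depended on the zero. They were 3115 and 48 with equal S. pombe medians, 2630 and 262 with the values as deposited, 3324 and 17 after loess normalization on the S. pombe probe sets, and 920 and 918 after quantile normalization. Leaving out each array gave 585 to 800 higher and 1212 to 1535 lower genes. The 2 median scalings and the deposited values differ by 1 constant per array, which moves every gene alike. For quantile and loess normalization the cause was not tested.

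Named genes with a negative difference turned positive with another zero. With equal S. pombe medians the values were RPS31 0.26, TPI1 0.14, TDH3 0.29, TEF2 0.20, GUS1 0.045, HTA2 0.49, HTA1 0.71, SPT15 0.07, TAF10 0.68, RPB10 0.50, GCN4 0.75, HSP12 0.038, CCW12 0.22, ATP1 0.02, ACO1 0.24, NHP2 0.48, SNU13 0.37, HXT7 0.32, SLX5 0.57, APL5 0.38, SEC39 0.43, VPS8 0.65, YRA1 0.92, MF(ALPHA)1 0.47, HIS3 0.25, ADE2 0.31 and CAN1 0.46. After loess they were RPS31 0.47, TPI1 0.36, TDH3 0.50, TEF2 0.41, GUS1 0.29, HTA2 0.71, HTA1 0.92, SPT15 0.33, TAF10 0.95, RPB10 0.75, GCN4 1.00, HSP12 0.28, PNC1 0.27, SSB1 0.20, HOM6 0.049, ERG2 0.17, CCW12 0.44, PRE9 0.19, ATP1 0.25, ACO1 0.49, NHP2 0.70, SNU13 0.60, HXT7 0.58, SLX5 0.71, APL5 0.58, SEC39 0.45, VPS8 0.63, YRA1 1.18, MF(ALPHA)1 0.69, MRP8 0.17, HIS3 0.52, ADE2 0.49 and CAN1 0.51. As deposited they were TDH3 0.006, HTA2 0.21, HTA1 0.42, TAF10 0.40, RPB10 0.22, GCN4 0.47, NHP2 0.20, SNU13 0.09, HXT7 0.035, SLX5 0.29, APL5 0.10, SEC39 0.14, VPS8 0.37, YRA1 0.64, MF(ALPHA)1 0.19, ADE2 0.028 and CAN1 0.18. After quantile normalization they were RPS31 0.022, TDH3 0.083, TEF2 0.018, HTA2 0.30, HTA1 0.51, TAF10 0.13, RPB10 0.16, GCN4 0.48, NHP2 0.33, SNU13 0.20, YRA1 0.26 and MF(ALPHA)1 0.29. YRA1, at -0.02 and between -0.09 and 0.059 without 1 array, was also positive with an offset of 16 (0.015), without steady-state replicate 1 (0.059) and without newly synthesized replicate 1 (0.022).

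The interaction counts of 61 and 19 were the least stable: 6 and 52 with equal S. pombe medians, 22 and 88 as deposited, 171 and 135 after quantile normalization, 6 and 2003 after loess, 4 and 1 with no filter, 89 and 30 with an offset of 16, and 88 and 30 with an intensity trend. Leaving out 1 array gave 0 to 485 and 0 to 125. The S. pombe counts of 53 and 93 were 0 and 0 with no filter, and leaving out 1 array gave 0 to 129 and 0 to 288. The spike-in ratio of 0.93 ranged from 0.75 to 1.12 without 1 array.

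Groups share replicate numbers, which the labels do not tie to a shared culture. The deviations of same-numbered arrays correlated at -0.019 between the labels with rapamycin and at 0.057 to 0.175 between other groups. With the replicate block the counts were 813 and 1540 for the main contrast, 175 and 53 for the interaction and 51 and 94 for S. pombe.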
